A study of Mus musculus with 16 samples.

Results

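The small leucine-rich proteoglycan genes Dcn (decorin), Bgn (biglycan), Aspn (asporin), Lum (lumican), Fmod (fibromodulin), Prelp, Ogn (osteoglycin) and Podn (podocan) were examined in the hearts of mice that overexpressed the long noncoding RNA Cardinal and of control mice. The 8 genes were taken by their symbols from a table of reads counted on 55573 genes, and all 8 passed the expression filter. RNA came from the heart apex of 16 male wild-type mice in 4 groups of 4. Every mouse had received an adeno-associated virus of serotype 9 on postnatal day 1, in which the cardiac troponin T promoter, active in cardiomyocytes, drove either GFP (AAV9-cTNT-GFP, the control) or mouse Cardinal (AAV9-cTNT-CARDINAL). Mice of 25 to 30 g then underwent TAC (transverse aortic constriction, a ligation that narrows the aorta and loads the left ventricle with pressure) or sham surgery without the ligation, and hearts were taken 4 weeks later. No group was left without virus, and the age at surgery and the strain were not given in the sources used here. The question was whether pressure overload changed these matrix genes and whether the change differed when cardiomyocytes overexpressed Cardinal.

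Small leucine-rich proteoglycans are secreted proteins whose curved core of leucine-rich repeats binds collagen fibrils and governs how the fibrils grow and assemble. Decorin and biglycan carry chondroitin or dermatan sulfate chains, lumican and fibromodulin carry keratan sulfate, and several members also bind growth factors such as TGF-beta or receptors on the cell surface. In the heart they are made mainly by fibroblasts and other stromal cells and form part of the matrix that is laid down under pressure overload.

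Of the 8 genes, 6 lie beside relatives in the genome (GRCm38, GENCODE M21). Dcn (ENSMUSG00000019929, chr10:97479609-97518143) is followed after 47.0 kb by Lum (ENSMUSG00000036446, chr10:97565128-97572703), and the keratocan and epiphycan genes, Kera and Epyc, come next on the same plus strand. Aspn (ENSMUSG00000021388, chr13:49544443-49567565) and Ogn (ENSMUSG00000021390, chr13:49608046-49624501) stand in a row of plus-strand genes in the order Ecm2, Aspn, Omd and Ogn. Prelp (ENSMUSG00000041577, chr1:133910304-133921414, minus strand) lies next to Optc, and Fmod (ENSMUSG00000041559, chr1:134037254-134048277, plus strand) starts 115.8 kb beyond it. Bgn (ENSMUSG00000031375, chrX:73483602-73495933, plus strand) and Podn (ENSMUSG00000028600, chr4:108014791-108096445, minus strand) have no relative of the list beside them. Of the 50-base stretches of the annotated transcripts, the length of a read here, none of those of Dcn, Lum, Fmod, Ogn and Aspn was found in a transcript of another gene, and the share was 0.142% for Bgn and 0.251% for Podn. For Prelp it was 8.47%, all of it shared with the antisense gene Gm15851, which overlaps 350 bases of Prelp exons. Because the use of strand in the counting was not given, reads of that overlap cannot be told apart, and Gm15851 itself held between 0 and 10 counts per mouse.

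**Figure D1:**
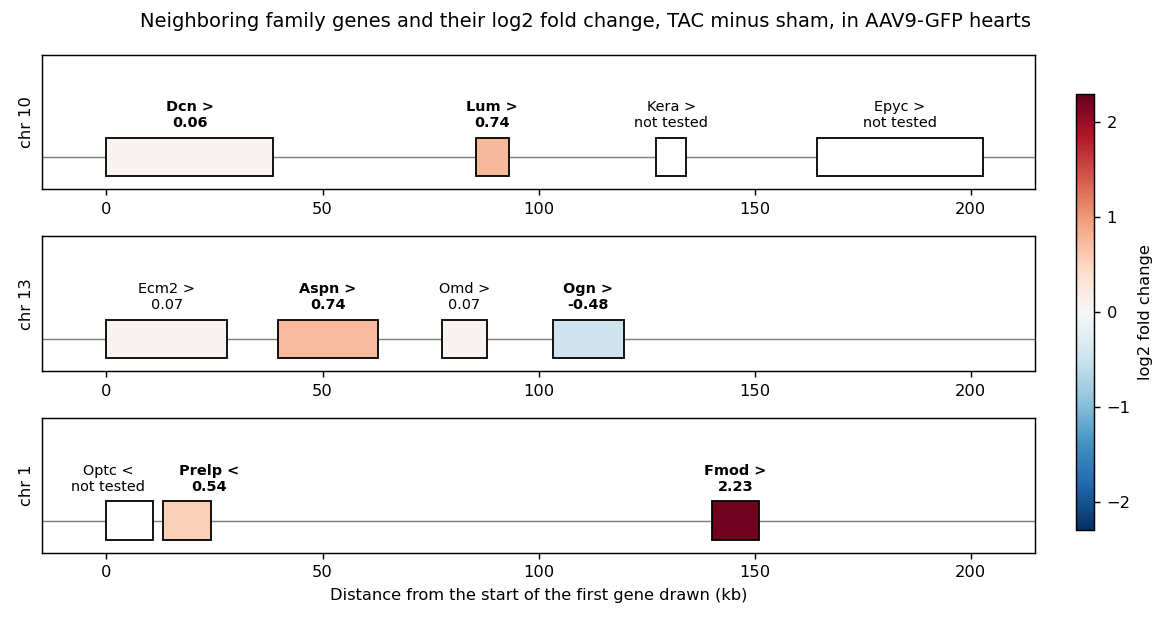
Family genes drawn to scale along 3 chromosomes, with distance in kb from the start of the first gene drawn and an arrowhead for the strand; genes outside the family are not drawn. Color and number give the log2 fold change of TAC over sham in AAV9-GFP hearts, members are in bold, and Aspn at 0.74 and Ogn at -0.48 stand in the same row with opposite signs.

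The RefSeq table of start sites used here held 6 of the 8 genes. The 250 bases before the start are shown for Bgn, the member with the lowest adjusted p after TAC in AAV9-GFP hearts, and for Aspn and Ogn, which are neighbors that moved in opposite directions, so that their sequences can be set beside the values that follow. They are on build GRCm38.p6, plus strand, at chrX:73483351-73483600, chr13:49544193-49544442 and chr13:49607765-49608014. Capitals mark every match, on either strand, of 4 short motifs, namely TGANTCA (the AP-1 site), GGAATG (TEAD), CAGAC (SMAD) and TATAAA (the TATA box).
Bgn: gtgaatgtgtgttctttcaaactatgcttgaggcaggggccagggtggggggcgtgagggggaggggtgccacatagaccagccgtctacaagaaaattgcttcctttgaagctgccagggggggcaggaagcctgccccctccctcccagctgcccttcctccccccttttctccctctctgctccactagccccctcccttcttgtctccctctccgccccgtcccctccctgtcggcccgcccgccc
Aspn: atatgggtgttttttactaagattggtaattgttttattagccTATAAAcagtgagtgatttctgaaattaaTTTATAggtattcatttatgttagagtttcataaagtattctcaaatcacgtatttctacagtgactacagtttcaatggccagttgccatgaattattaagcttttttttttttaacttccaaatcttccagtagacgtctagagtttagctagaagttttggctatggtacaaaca
Ogn: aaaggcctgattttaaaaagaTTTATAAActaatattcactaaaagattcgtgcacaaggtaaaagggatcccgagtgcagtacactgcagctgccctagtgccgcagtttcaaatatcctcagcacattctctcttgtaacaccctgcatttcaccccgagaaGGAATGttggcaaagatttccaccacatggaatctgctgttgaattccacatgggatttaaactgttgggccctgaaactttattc
The Bgn window had a GC content of 64.4% and no match to any of the 4 motifs. The Aspn window had a GC content of 30.0% and 2 matches to TATAAA. The Ogn window had a GC content of 42.0%, 1 match to GGAATG and 2 overlapping matches to TATAAA, 1 on each strand. Among the 32851 windows of the same length in the table, 6.75% held TGANTCA, 12.6% GGAATG, 42.2% CAGAC and 12.4% TATAAA. These letters describe the windows and say nothing of whether a factor binds there.

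The level of each gene per length was taken as RPKM over the union of its annotated exons, normalized by TMM. Averaged over the 16 mice, Dcn led with 50.5 RPKM and made up 32.9% of the sum of the 8 genes. Ogn followed with 31.8 RPKM, Bgn with 31.2, Lum with 15, Aspn with 12, Prelp with 9.67, Podn with 3.09 and Fmod with 0.177. In AAV9-GFP sham hearts the order was Dcn at 52.4 ± 3.34 RPKM (SD, n = 4), Ogn at 35.9 ± 2.33, Bgn at 21.4 ± 1.85, Lum at 12.4 ± 1.17, Aspn at 9.55 ± 0.860, Prelp at 8.78 ± 0.296, Podn at 3.24 ± 0.462 and Fmod at 0.0869 ± 0.0969. In that order the mice of adjacent genes did not overlap, except for Aspn and Prelp, whose ranges met between 8.92 and 9.04 RPKM. In AAV9-GFP TAC hearts Bgn, at 51.0 ± 8.73 RPKM (SD, n = 4), stood beside Dcn at 54.5 ± 5.93, and the ranges of both genes overlapped. Ogn, at 25.7 ± 2.20, had come down to the range of Lum at 20.7 ± 2.95. In AAV9-Cardinal sham hearts the order was Dcn at 48.1 ± 1.77 RPKM, Ogn at 35.7 ± 1.06, Bgn at 20.2 ± 1.39 and Lum at 12 ± 2.0, and these neighbors did not overlap. Prelp at 8.70 ± 0.459 and Aspn at 8.35 ± 1.35 overlapped, whereas Podn at 3.33 ± 0.951 and Fmod at 0.0970 ± 0.0132 stood apart. In AAV9-Cardinal TAC hearts Dcn was at 47.1 ± 6.22, Bgn at 32.4 ± 10.2, Ogn at 29.8 ± 5.48, Lum at 14.9 ± 6.16, Aspn at 14.3 ± 3.3, Prelp at 8.43 ± 2.13, Podn at 2.75 ± 0.936 and Fmod at 0.110 ± 0.0620 RPKM, and Bgn overlapped Dcn and Ogn. These means include replicate 1, the highest mouse of the group, with 47.6 RPKM of Bgn and 24.1 RPKM of Lum. With the longest transcript of each gene as its length, Bgn came first with 71.4 RPKM, Dcn was next with 62.9 and Ogn followed with 31.8, so the order of the 3 leading genes rests on the length that is assumed.

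**Figure D2:**
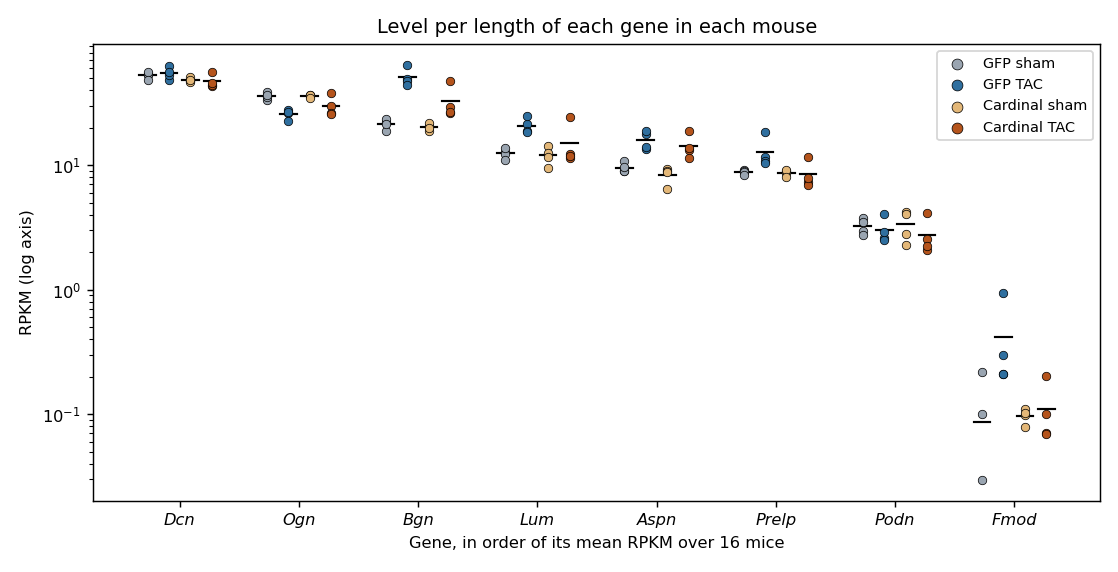
RPKM of each gene in each of the 16 mice on a log axis, with points colored by group and black lines at the group means; the GFP sham mouse with 0 Fmod counts has no point. Dcn stays near 50 RPKM in every group, Bgn moves from about 20 to about 50 between GFP sham and GFP TAC hearts, and Fmod lies below 1 RPKM in every mouse.

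The libraries held 16441997 to 21904589 counts, and all but Cardinal sham replicate 4, the lowest, held at least 21525012. The spread between mice of a group exceeded counting noise in every pair, so that no library was taken for a copy of another. This check does not judge single libraries, and all 16 mice were kept. Cardinal itself, listed as Gm12295, was at 3.42 to 7.24 CPM (counts scaled to a common library size by TMM) in the 8 AAV9-GFP hearts, at 26.2 to 40.0 CPM in AAV9-Cardinal sham hearts and at 18.3 to 93.9 CPM in AAV9-Cardinal TAC hearts, and the highest value came from Cardinal TAC replicate 1. This mouse also stood apart from the other 3 of its group in several of the genes described here, so the changes after TAC with Cardinal and the differences between vectors are also given without it where it moved them most. The mouse was picked from these same values, so adjusted p-values without it are not independent of that choice. They show only how far a result rests on this mouse. GFP sham replicate 4 had 219 CPM of the smooth muscle actin gene Acta2, against 38.4 to 62.7 CPM in the other 15 mice. No label marks a batch. The samples are separate mice, but nothing in the labels ties the replicate numbers to litters or days.

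After TAC in AAV9-GFP hearts, Bgn, Aspn, Lum, Prelp and Fmod rose and Ogn fell, while Dcn and Podn did not pass the test. Bgn rose 2.39-fold, Aspn and Lum 1.67-fold, Prelp 1.45-fold and Fmod 4.69-fold, and Ogn was 1.40-fold lower. The size for Fmod is uncertain, at 2.72-fold without GFP TAC replicate 3 and 9.18-fold without GFP sham replicate 2. In edgeR's quasi-likelihood test these 6 of 8 genes had adjusted p-values below 0.05, 5 higher and 1 lower, where 17.4% of the 16857 genes tested did (8.49% higher and 8.92% lower). The median log2 fold change of the 8 genes was 0.64, and it was 0.0050 over all genes tested. Fmod passed the expression filter of 0.46 CPM in 4 mice only through the AAV9-GFP TAC hearts, which were 4 of the 6 mice at or above it, so its call is not independent of the filter. For the other 7 genes, 5 of which passed the test, every mouse was at or above the filter. In bulk tissue, fewer cells of a type and less RNA per cell cannot be told apart.

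**Figure D3:**
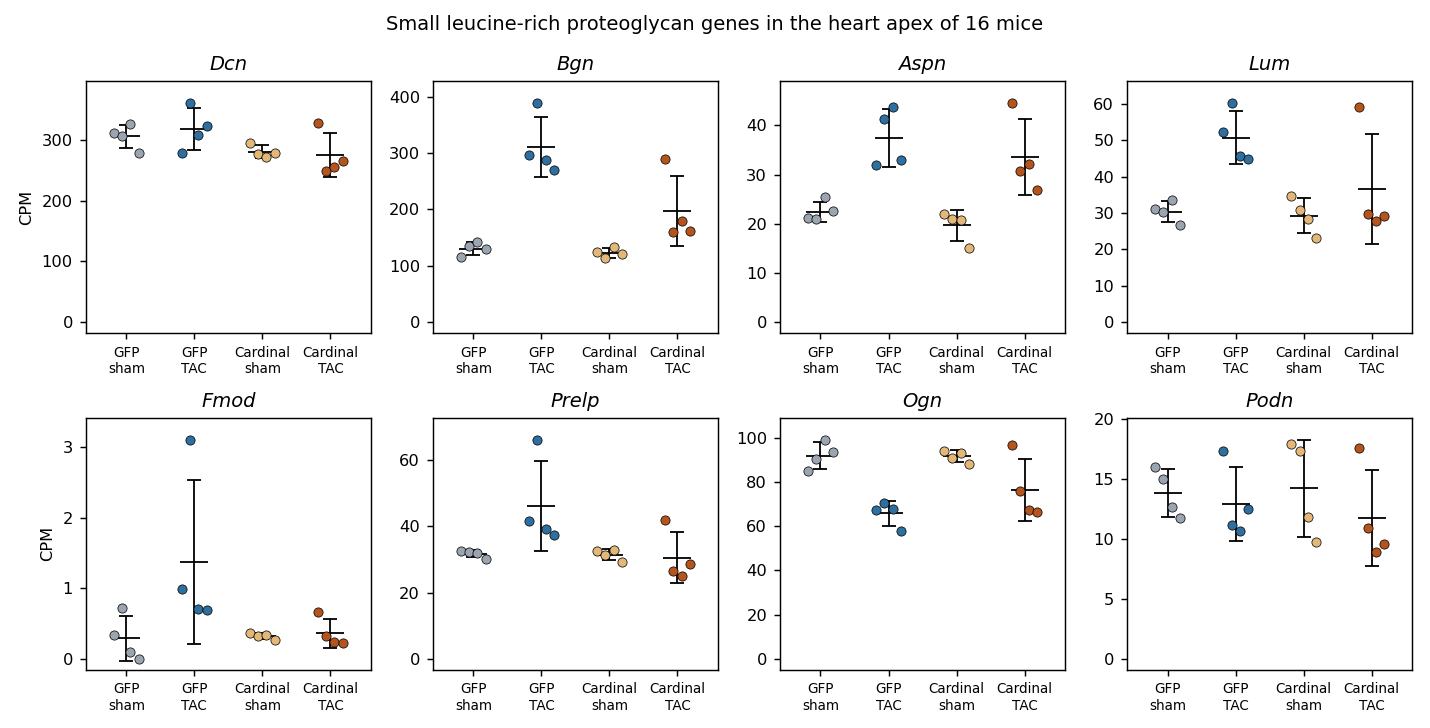
CPM of each gene in each mouse (points), with the group mean and SD (black line and bars, n = 4). GFP TAC hearts lie above GFP sham hearts without overlap for Bgn, Aspn, Lum and Prelp and below them for Ogn, and Cardinal TAC replicate 1, the first orange-brown point of its group, is the highest of its group in every panel.

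Decorin, biglycan and asporin form the first class of the family. Bgn was at 115, 134, 142 and 130 CPM in GFP sham replicates 1 to 4 and at 296, 389, 288 and 270 CPM in GFP TAC replicates 1, 3, 4 and 7. All TAC mice stood above all sham mice, with a gap of more than the whole range of the sham group. On the log2 scale the rise was 1.26 (standard error 0.16, edgeR's adjusted p = 0.00015), and the gene stayed past the threshold with each of the 16 mice left out in turn. Aspn, which encodes a member without a glycosaminoglycan chain, was at 21.1, 21, 25.3 and 22.5 CPM in GFP sham hearts and at 31.8, 41.3, 43.7 and 32.9 CPM in GFP TAC hearts. The groups did not overlap, and the log2 fold change was 0.74 (standard error 0.15, edgeR's adjusted p = 0.0042), again past the threshold with any mouse left out. Dcn, the most abundant member per length by exon union, was at 313, 306, 326 and 280 CPM in sham and at 278, 361, 308 and 324 CPM in TAC hearts. Its groups overlapped fully. The log2 fold change of Dcn was 0.055 (standard error 0.088), with an approximate 95% interval from -0.12 to 0.23 and an edgeR adjusted p of 0.74, so that a change of the size seen in Bgn lies outside the interval.

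Lumican, fibromodulin and PRELP belong to the class in which keratan sulfate chains occur, although PRELP itself carries none. Lum was at 31.0, 30.2, 33.5 and 26.6 CPM in GFP sham hearts and at 52.2, 60.2, 45.5 and 44.7 CPM in GFP TAC hearts. The groups were apart, and the rise was 0.74 on the log2 scale (standard error 0.20, edgeR's adjusted p = 0.021). Prelp was at 32.7, 32.2, 31.9 and 30.2 CPM in sham hearts and at 41.7, 66.2, 39.2 and 37.4 CPM in TAC hearts. All 4 TAC mice were above the sham mice, and GFP TAC replicate 3 was far above the other 3. On the log2 scale Prelp rose by 0.54 (standard error 0.17, edgeR's adjusted p = 0.041). Fmod was near the limit of detection, with 7, 15, 2 and 0 counts in GFP sham hearts and 23, 74, 16 and 16 counts in GFP TAC hearts, or up to 0.72 CPM and 0.696 to 3.10 CPM. A count of 0 in that sham mouse allows up to 3 counts, or 0.147 CPM, which covers counting error only. The sham and TAC ranges of Fmod overlapped by a single sham mouse, and the log2 fold change was 2.23 (standard error 0.70, edgeR's adjusted p = 0.029). Without GFP TAC replicate 3, Lum (1.57-fold, adjusted p = 0.071), Prelp (1.24-fold, 0.14) and Fmod (2.72-fold, 0.15) no longer passed in edgeR. Lum was about as large as before, whereas Prelp and Fmod were smaller, and 3 of the 8 genes were left where 11.5% of all genes tested passed. Without GFP sham replicate 4, the mouse with high Acta2, Lum, Prelp and Fmod had log2 fold changes of 0.68, 0.52 and 1.83 and adjusted p of 0.057, 0.088 and 0.062 in edgeR, where 15.2% of all genes passed. Fmod also failed without GFP sham replicate 1 (adjusted p = 0.060) or 3 (0.087) in edgeR. Prelp was nearest to the threshold and passed in 7 of the 16 fits that left a mouse out. In edgeR it failed without GFP sham replicate 1 (0.073), 2 (0.079) or 3 (0.084) and without Cardinal sham replicate 1 (0.051), 2 (0.052), 3 (0.052) or 4 (0.050, not under the threshold), since all groups share the estimate of the spread. The 3 genes had higher values after TAC in all of these fits.

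Osteoglycin belongs to the third class and podocan to a further class. Ogn was at 84.8, 90.5, 99.2 and 93.5 CPM in GFP sham hearts and at 67.4, 70.6, 67.8 and 57.7 CPM in GFP TAC hearts. It was the only one of the 8 genes with all TAC mice below all sham mice. Its log2 fold change was -0.48 (standard error 0.10, edgeR's adjusted p = 0.0038), and the gene stayed past the threshold with each mouse left out. Podn was at 16, 15, 12.7 and 11.7 CPM in sham hearts and at 17.4, 11.2, 10.6 and 12.5 CPM in TAC hearts. The groups overlapped, and the log2 fold change was -0.10 (standard error 0.23, edgeR's adjusted p = 0.83, interval from -0.56 to 0.35). In exact two-sided permutation tests of single genes, 4 mice against 4, the p was 0.0286 for Bgn, Aspn, Lum, Prelp and Ogn, which is the smallest that 70 labelings allow, 0.0857 for Fmod, 0.571 for Podn and 0.657 for Dcn. These 5 genes were also those whose groups did not overlap, where 20.3% of all genes tested had groups apart.

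In AAV9-Cardinal hearts TAC raised Bgn and Aspn, and the other 6 genes did not pass the test. Bgn was 1.61-fold and Aspn 1.70-fold higher. These 2 of 8 genes compare with 6.48% of all genes tested (3.10% higher) in edgeR's quasi-likelihood test, and their groups were the only ones of the 8 that did not overlap, where 13.7% of all genes had groups apart. The median log2 fold change of the 8 genes was 0.070, against -0.00047 over all genes tested. In an edgeR fit with the replicate number as a block, 0 of the 8 genes passed here, where 31 of 16857 genes tested did.

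Bgn was at 124, 114, 134 and 121 CPM in Cardinal sham replicates 1 to 4 and at 290, 160, 179 and 162 CPM in Cardinal TAC replicates 1, 4, 5 and 6. Replicate 1 reached the levels of GFP TAC hearts, and the other 3 TAC mice stood between them and the sham mice. On the log2 scale Bgn rose by 0.68 (standard error 0.16, edgeR's adjusted p = 0.026). It was 0.44 (standard error 0.11, edgeR's adjusted p = 0.024) without Cardinal TAC replicate 1. The call did not hold in edgeR without Cardinal sham replicate 1 (adjusted p = 0.059), 2 (0.080) or 4 (0.059), or without Cardinal TAC replicate 5 (0.050, not under the threshold), which leaves 1 called gene in each case. It did not hold either in a fit of only the 8 mice compared (0.056). Aspn was at 22.1, 21, 20.7 and 15 CPM in Cardinal sham and at 44.6, 30.7, 32.2 and 26.8 CPM in Cardinal TAC hearts. All TAC mice were above the sham mice, also with replicate 1 set aside. The log2 fold change of Aspn was 0.77 (standard error 0.16, edgeR's adjusted p = 0.011), and it passed with each mouse left out, with 0.60 (standard error 0.14, edgeR's adjusted p = 0.017) without Cardinal TAC replicate 1. Dcn was at 296, 277, 272 and 280 CPM in sham hearts and at 328, 250, 255 and 266 CPM in TAC hearts. Apart from replicate 1, the TAC mice were below all sham mice. The log2 fold change of Dcn was -0.032 (standard error 0.088, edgeR's adjusted p = 0.89), and -0.13 (standard error 0.075, 0.33) without that mouse.

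Lum was at 34.7, 30.9, 28.3 and 23.2 CPM in Cardinal sham hearts and at 59.1, 29.8, 27.9 and 29.2 CPM in Cardinal TAC hearts. Only replicate 1 stood above the sham range. Its log2 fold change was 0.32 (standard error 0.21, edgeR's adjusted p = 0.41), and it was -0.016 (standard error 0.13) without that mouse. Prelp was at 32.6, 31.2, 32.8 and 29.2 CPM in sham and at 41.8, 26.6, 24.9 and 28.6 CPM in TAC hearts. Here replicate 1 was above and the other 3 TAC mice below all sham mice, and the log2 fold change was -0.046 (standard error 0.17, edgeR's adjusted p = 0.92), and -0.24 (standard error 0.15, 0.39) without it. Fmod had 8, 7, 7 and 4 counts in sham and 15, 7, 5 and 5 counts in TAC hearts, which gave 0.17 on the log2 scale (standard error 0.79, edgeR's adjusted p = 0.94). Ogn was at 94.3, 91.0, 93.2 and 88.1 CPM in sham and at 96.6, 75.9, 67.4 and 66.3 CPM in TAC hearts. Replicates 4, 5 and 6 lay below every sham mouse, whereas replicate 1 was the highest of the 8. The log2 fold change of Ogn was -0.26 (standard error 0.10, edgeR's adjusted p = 0.14). It was -0.39 (standard error 0.073, edgeR's adjusted p = 0.0078) without Cardinal TAC replicate 1, so that 3 of the 8 genes then passed where 8.41% of all genes did. Podn was at 17.9, 17.4, 11.9 and 9.73 CPM in sham and at 17.6, 10.9, 8.89 and 9.58 CPM in TAC hearts, which overlapped (log2 fold change -0.28, standard error 0.23, edgeR's adjusted p = 0.54). Without replicate 1 the value for Podn was -0.54 (standard error 0.21, edgeR's adjusted p = 0.13), and for Fmod it was -0.29 (standard error 0.87, 0.89).

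**Figure D4:**
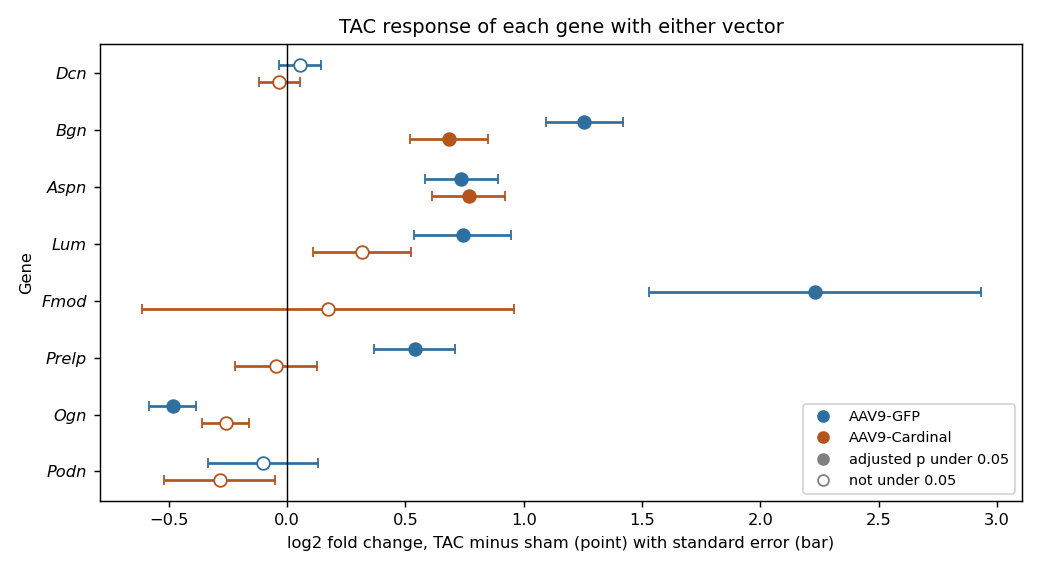
Log2 fold change of TAC over sham for each gene in AAV9-GFP hearts (blue) and AAV9-Cardinal hearts (orange-brown), with the standard error of the fit; filled points had an adjusted p under 0.05 in edgeR. Aspn has almost the same value with either virus (0.74 and 0.77), Bgn has 1.26 and 0.68, and Ogn lies below 0 with both.

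Set against each other after TAC, AAV9-Cardinal hearts had lower values than AAV9-GFP hearts for 7 of the 8 genes and a higher value for Ogn, and with all mice in the fit none of these differences passed the threshold in edgeR, whereas 2 did in DESeq2. Bgn was 1.57-fold, Prelp 1.51-fold, Lum 1.39-fold and Dcn 1.16-fold lower with AAV9-Cardinal. With edgeR 0 of 8 genes passed, where 0.101% of all genes tested did, and 6 of 8 had an unadjusted p under 0.05, where 15% of all genes had. DESeq2 called 2 of the 8, Bgn (adjusted p = 0.0073) and Prelp (0.033), where it called 2.01% of all genes. The median log2 fold change of the 8 genes was -0.34, and it was -0.0065 over all genes tested.

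For Bgn, the Cardinal TAC values of 160 to 179 CPM in replicates 4, 5 and 6 lay below the lowest GFP TAC mouse at 270 CPM, and replicate 1, at 290 CPM, lay within the GFP TAC range. Its log2 fold change was -0.65 (standard error 0.16, approximate 95% interval from -0.97 to -0.33, edgeR's adjusted p = 0.096). For Prelp it was -0.60 (standard error 0.17, edgeR's adjusted p = 0.12), for Lum -0.47 (standard error 0.20, 0.29), for Dcn -0.21 (standard error 0.088, 0.27) and for Fmod -1.89 (standard error 0.65, 0.17). Fmod was the only gene of the 8 whose groups did not overlap, where 6.77% of all genes had groups apart, and its Cardinal TAC mice held 5 to 15 counts against 16 to 74. As Fmod passed the expression filter only through the AAV9-GFP TAC hearts, this separation is tied to the filter. Of the other 7 genes, 5 had an unadjusted p under 0.05 in edgeR and 0 had groups apart. Ogn was 1.16-fold higher with AAV9-Cardinal, or 0.22 on the log2 scale (standard error 0.10, edgeR's adjusted p = 0.32). Aspn at -0.16 (interval from -0.45 to 0.14) and Podn at -0.13 (interval from -0.59 to 0.32) had intervals that held 0.

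Without Cardinal TAC replicate 1, Bgn, Lum, Prelp and Dcn were lower in AAV9-Cardinal than in AAV9-GFP hearts after TAC and passed the threshold in edgeR. These 4 of 8 genes compare with 3.13% of all genes tested without that mouse (1.64% lower). On the log2 scale Bgn was then at -0.90 (standard error 0.11, edgeR's adjusted p = 0.00084), Lum -0.80 (standard error 0.13, 0.0061), Prelp -0.79 (standard error 0.15, 0.016) and Dcn -0.31 (standard error 0.075, 0.042). Fmod at -2.36 (edgeR's adjusted p = 0.091), Podn at -0.40 (0.33), Aspn at -0.32 (0.21) and Ogn at 0.087 (0.57) did not pass. With any other mouse left out, 0 of the 8 passed. This mouse was the one with 93.9 CPM of Cardinal, and its part in the result was not tested. It was set aside because its values of these same genes stood apart, so the adjusted p-values without it are not independent of that choice.

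**Figure D5:**
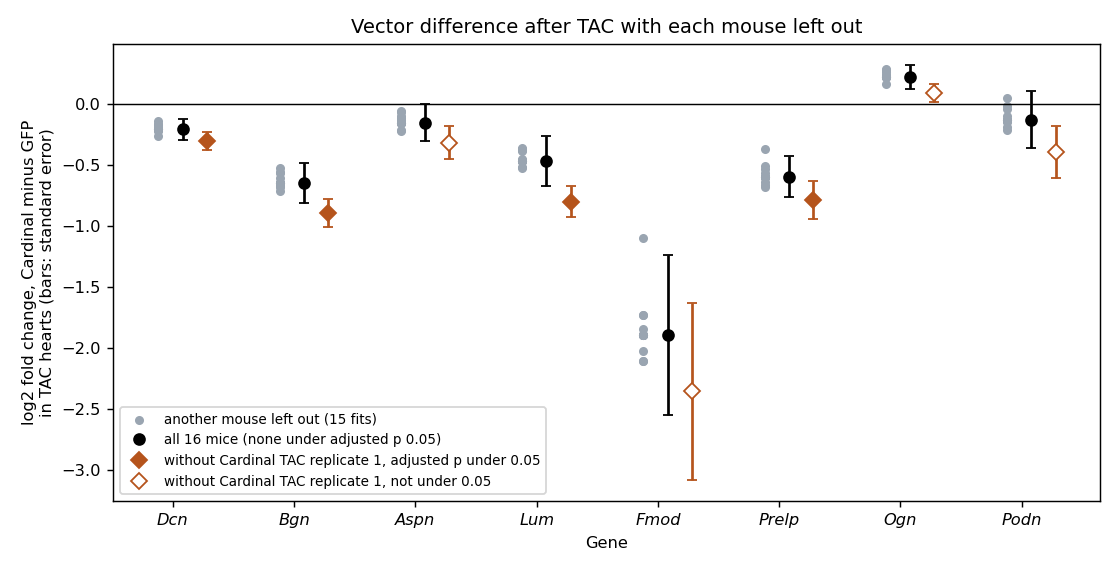
Log2 fold change of AAV9-Cardinal over AAV9-GFP in TAC hearts for each gene with all 16 mice (black), without Cardinal TAC replicate 1 (orange-brown diamonds, filled where the adjusted p was under 0.05) and with each of the other mice left out (gray); bars are standard errors. The diamonds of Dcn, Bgn, Lum and Prelp are filled and lie below the black points.

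The difference between the TAC responses of the 2 vectors was tested as an interaction. With all mice, 0 of the 8 genes passed in edgeR, where 0.0119% of all genes did, 2 of 8 (Bgn and Prelp) had an unadjusted p under 0.05, where 10.2% of all genes had, and DESeq2 called 0 of the 8, where it called 0.113% of all genes. The response of Bgn with AAV9-Cardinal minus that with AAV9-GFP was -0.57 on the log2 scale (standard error 0.23, edgeR's adjusted p = 0.41). This difference was -0.59 for Prelp (standard error 0.24, 0.43) and -0.43 for Lum (standard error 0.29, 0.64). For Aspn the difference was 0.030 (standard error 0.22, interval from -0.40 to 0.46). Without Cardinal TAC replicate 1, Bgn passed with -0.82 (standard error 0.15, edgeR's adjusted p = 0.036), where 0.463% of all genes did. Lum was then at -0.76 (edgeR's adjusted p = 0.068), Prelp at -0.78 (0.11) and Aspn at -0.14 (0.79). These values too leave out a mouse that was picked from the same data.

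Without pressure overload no difference between the vectors was detected in these genes. In sham hearts, 0 of the 8 genes passed between the vectors in edgeR, where 0.0119% of all genes did, 0 of 8 had an unadjusted p under 0.05, where 2.59% of all genes had, and DESeq2 called 0, where it called 0.0237% of all genes. The groups overlapped for all 8 genes, where 2.36% of all genes had groups apart. Log2 fold changes lay between -0.19 for Aspn and 0.16 for Fmod. The approximate 95% interval was from -0.30 to 0.048 for Dcn, from -0.40 to 0.24 for Bgn, from -0.50 to 0.12 for Aspn and from -0.20 to 0.19 for Ogn, whereas for Fmod, with 0 to 15 counts per mouse, it reached from -1.46 to 1.78.

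The balance among the genes was described by their shares and ratios. In AAV9-GFP sham hearts Dcn made up 36.5% ± 1.35 (SD, n = 4), Ogn 25.0% ± 1.21 and Bgn 14.9% ± 0.925 of the summed RPKM of the 8 genes. In AAV9-GFP TAC hearts these shares were 29.7% ± 2.40, 14.0% ± 1.21 and 27.6% ± 1.39. In AAV9-Cardinal hearts the share of Bgn was 14.8% ± 1.08 after sham surgery and 21.4% ± 1.89 after TAC, and that of Ogn was 26.2% ± 0.595 and 20.1% ± 1.43. The summed level was 144 ± 7.36 RPKM in GFP sham, 184 ± 22.5 in GFP TAC, 136 ± 6.72 in Cardinal sham and 150 ± 33.8 in Cardinal TAC hearts. In the last group replicate 1 was at 200 RPKM and replicates 4, 5 and 6 at 134, 134 and 131, so that its mean lies above that of the Cardinal sham group through this mouse alone. The share of Bgn was 23.8% in replicate 1 and 19.6% to 22% in the other 3. The ratio of Aspn to Ogn, taken in CPM within each mouse, was 0.249, 0.232, 0.255 and 0.241 in GFP sham and 0.473, 0.586, 0.644 and 0.570 in GFP TAC hearts. It was 0.234, 0.230, 0.222 and 0.170 in Cardinal sham and 0.461, 0.405, 0.477 and 0.404 in Cardinal TAC hearts, where replicate 1 did not stand apart. The ratio of these neighboring genes was higher in all 8 TAC hearts than in all 8 sham hearts. The ratio of Bgn to Dcn was 0.368 to 0.464 in GFP sham, 0.832 to 1.1 in GFP TAC, 0.410 to 0.492 in Cardinal sham and 0.608 to 0.884 in Cardinal TAC hearts. All 28 pairs of the 8 genes were compared in this way by the exact two-sided permutation test on log2 ratios. In AAV9-GFP hearts 16 pairs reached an exact p = 0.0286, the smallest value possible, with 0.050 after adjustment over the 28 pairs, which is not under the threshold, so that 0 pairs passed. Since no pair can go lower, the adjusted value is set by how many pairs reach that p. The adjustment therefore cannot judge a single pair. In AAV9-Cardinal hearts 15 pairs reached that p in the exact permutation test and 0.053 after adjustment, in the TAC hearts of the 2 vectors 12 pairs and 0.067, and in the sham hearts 0 pairs. All pairs that hold Fmod are among the 12 between vectors, and some are among the 16 with GFP. Fmod passed the expression filter only through the AAV9-GFP TAC hearts, so these pairs are tied to the filter.

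Other genes of the family and of the pathway were followed through lists, whose counts are to be read against the shares of all genes tested, 8.49% called higher after TAC with GFP and 3.10% with Cardinal, with medians of 0.0050 and -0.00047 on the log2 scale. Of 9 further family members in the table, Kera, Epyc and Optc had 0 counts in all 16 mice, Chad and Podnl1 had at most 10 and 3 counts in a mouse and were not tested, and 4 were tested. Tsku (tsukushi, an inhibitor of BMP and Wnt signals) rose after TAC in AAV9-GFP hearts from a mean of 1.31 to 2.51 CPM, or by 0.94 on the log2 scale (standard error 0.23, edgeR's adjusted p = 0.0091). Ecm2 and Omd, which flank Aspn, had log2 fold changes of 0.070 and 0.069 there and did not pass, nor did Nyx at -0.16. In AAV9-Cardinal hearts 0 of these 4 passed in edgeR.

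Enzymes that build chondroitin and dermatan sulfate chains passed for 6 of 21 tested genes after TAC in AAV9-GFP hearts, all higher, with a median log2 fold change of 0.43 over the 21. Among them, Xylt1, which adds the first xylose of the chain, rose by 0.65 (standard error 0.16, edgeR's adjusted p = 0.012), and the polymerizing factors Chpf2 and Chpf by 0.54 and 0.53. In AAV9-Cardinal hearts 1 of the 21 passed, Xylt1, a share near that of all genes, and the median was 0.30. Of 5 tested keratan sulfate enzymes, only B4galt1 passed, higher with either vector, which as a single gene is no result about the list. Its mean went from 53.0 to 65.2 CPM with GFP and from 52.4 to 72.7 CPM with Cardinal. The median log2 fold change of the 5 was 0.29 with GFP and 0.26 with Cardinal. Among 11 tested proteases that process or cleave these proteoglycans, 4 were higher in AAV9-GFP hearts. They were Bmp1, which removes the propeptides of biglycan and collagens (log2 fold change 0.29, standard error 0.063, edgeR's adjusted p = 0.0052), its enhancer Pcolce (0.68), Mmp14 (0.66) and Mmp2 (0.53). The median of the 11 was 0.30. In AAV9-Cardinal hearts 1 of the 11 passed, Adamts1, at 0.89, which as a single gene is no result about the list, and the median was 0.17. Of 20 ligands and receptors that bind the family, 7 were higher in AAV9-GFP hearts, with Met at 1.84, Cd44 at 1.32, Tgfb2 at 0.94 and Tgfb3 at 0.49, and in AAV9-Cardinal hearts 2 were higher, Met at 1.57 and Cd44 at 1.34. All 11 collagens of the list, which form or decorate the fibrils that these proteoglycans bind, were higher in AAV9-GFP hearts, with a median log2 fold change of 1.04, Col12a1 at 2.14, Col5a2 at 1.52, Col3a1 at 1.49 and Col1a1 at 1.46. In AAV9-Cardinal hearts 4 of the 11 passed, all higher, and the median was 0.57. Between the vectors after TAC, 0 genes of these lists passed in edgeR, and the median log2 fold change was -0.62 for the collagens and -0.088 for the chain enzymes.

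Markers of the cells in the tissue were read beside these values, again against the 8.49% of all genes called higher and 8.92% called lower after TAC with GFP and the 6.48% called with Cardinal. The 9 cardiomyocyte markers summed to 45154 to 45943 CPM in GFP sham, 33124 to 39823 in GFP TAC, 43123 to 47529 in Cardinal sham and 39848 to 44628 in Cardinal TAC hearts, and 6 of 9 fell after TAC with GFP. With Cardinal 1 rose (Actn2) and 1 fell (Pln). The largest part of the sum was Myh6, at a mean of 19200, 15329, 19870 and 17884 CPM in the same order, so the sum does not stand for the list. The median log2 fold change of the 9 after TAC was -0.28 with GFP and -0.036 with Cardinal. The 10 fibroblast markers summed to 779 to 911, 825 to 1039, 781 to 816 and 733 to 913 CPM in the same order of groups, and 4 of 10 rose with GFP and 1 with Cardinal, the latter a single gene, Pi16. Most of that sum was Gsn, at a mean of 610, 532, 584 and 512 CPM in the same order, so the sum does not stand for the list. The median log2 fold change of the 10 after TAC was 0.27 with GFP and 0.15 with Cardinal. The activated fibroblast list, of which 7 of 8 genes were tested, summed to 114 to 297, 302 to 461, 108 to 137 and 150 to 277 CPM, and 5 rose with GFP and 3 with Cardinal. Its highest sham value was that of GFP sham replicate 4 with its high Acta2, and its highest Cardinal TAC value was that of replicate 1. Postn, the activated fibroblast gene periostin, rose by 2.86 on the log2 scale (standard error 0.27, edgeR's adjusted p = 2e-05) in AAV9-GFP and by 1.37 (standard error 0.28, edgeR's adjusted p = 0.011) in AAV9-Cardinal hearts. Between the vectors after TAC, 1 of the 7 tested genes of this list passed, where 0.101% of all genes did. It was Thbs4, lower with AAV9-Cardinal at -1.67 (standard error 0.28, edgeR's adjusted p = 0.043). The median log2 fold change of the list there was -0.89. The mural list summed to 952 to 1033 CPM in GFP sham, 874 to 932 in GFP TAC, 955 to 995 in Cardinal sham and 833 to 913 in Cardinal TAC hearts, so that its sum was lower in every TAC heart than in every sham heart. This sum does not stand for the list, whose median log2 fold change after TAC was 0.17 with GFP and 0.026 with Cardinal. Abcc9 alone went from a mean of 364 to 229 CPM with GFP and from 373 to 270 CPM with Cardinal. The endothelial list summed to 769 to 895 CPM in GFP sham, 868 to 1060 in GFP TAC and 842 to 1062 in Cardinal TAC hearts, with Cardinal sham hearts at 832 CPM or less. Macrophage and red blood cell markers summed to 152 to 226 and 343 to 1030 CPM over all mice. After TAC with GFP 1 of 7 endothelial markers rose, 3 of 7 mural markers rose and 1, the abundant Abcc9 (log2 fold change -0.67), fell, 1 of 7 macrophage markers rose, and 0 of 4 red blood cell markers passed in edgeR. Markers of tendon and cartilage, tissues rich in these proteoglycans, summed to 3.37 to 13.0 CPM with Tnmd at 0 in all mice, and 2 of the 3 tested (Sox9 and Scx) rose and 1 (Cnmd) fell after TAC with GFP. Lymphocyte, adipocyte, epicardial, Schwann and atrial markers summed to at most 13.1 CPM in any mouse, with Lep and Retn at 0. No list held any of the 8 genes, and Col1a1 and Col1a2 stood in both the fibroblast and the collagen list. The part of cell numbers in the changes of the 8 genes was not tested.

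Within groups, each gene had other genes that varied with it from mouse to mouse. After the group means were taken out of log2 CPM, the gene with the highest Pearson r over the 16 mice, among those with a mean of at least 10 CPM, was Lyz2 for Dcn (0.93), Colec11 for Bgn (0.95), Bloc1s6 for Lum (0.94), Rasa3 for Fmod (0.86), Pacs1 for Ogn (0.90), Sfrp1 for Prelp (0.93), Pcsk6 for Aspn (0.87) and Abca8a for Podn (0.97). Without Cardinal TAC replicate 1 these r were 0.89, 0.89, 0.89, 0.84, 0.80, 0.91, 0.79 and 0.95. Col3a1 was among the 3 closest genes of Bgn (0.91, and 0.71 without that mouse), Col1a2 among those of Lum (0.90 and 0.63), and Ecm2, which lies in the same row of genes, among those of Ogn (0.89 and 0.79). Lyz2 is also in the macrophage list. No member was among the 3 closest genes of another. Over the 28 pairs of members, with all 16 mice, r ranged from 0.21 for Fmod and Aspn to 0.84 for Bgn and Ogn. The r of the closest genes are maxima over many genes. All these r describe these libraries, which share each mouse's tissue sample and depth.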

How the data were processed

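RNA-seq counts from the heart apex of 16 mice were analysed. The deposited counts are raw reads per gene made by the authors from poly(A)-selected, single-end 50-base reads. The submitters' processing notes name FastQC, HISAT2 2.1.0, edgeR 3.26.1 and GRCm38. The counting program, its use of strand and its handling of reads with several matches were not given in the sources used here. Groups came from the sample labels. Counts were fitted with edgeR 4.0.16 (R 4.3.3) by its quasi-likelihood test with TMM scaling over all 16 mice, after a filter on low counts that left 16857 of 55573 genes. Benjamini-Hochberg adjustment ran over all genes tested, with 0.05 as the threshold. CPM used TMM library sizes. RPKM used the union of GENCODE M21 exons, and intervals are approximate 95% intervals from the standard error. Single genes and pairs of genes were compared by exact two-sided permutation tests, 4 mice against 4, with a prior count of 2 on the log2 scale.

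The 8 genes, the lists and the alternatives were chosen with earlier results of these data known. Genes outside the 8 were named, at most 4 per list and comparison, where they passed the test, their groups did not overlap and the group with more RNA averaged 1 CPM or more, taking the largest changes. Some genes outside this rule were also named, where a count was small or a gene weighed on the sum of its list. Not every gene that was counted as passing was named. Alternatives were DESeq2 1.42.0, RLE scaling, no filter, a filter of 1 CPM in 4 mice, only the 8 mice compared, a robust spread, mitochondrial genes left out, a replicate block and each mouse left out. The fits were tested on simulated data. A count of 0 allows 3 counts, or 0.126 to 0.195 CPM depending on the library. P-values of the fits set a difference between groups against the spread between these mice, and exact p-values count labelings of the mice.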

Additional observations from a re-analysis of the deposited data

Results flagged for a closer look

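In each of the 32 combinations of gene and group, the highest and lowest mouse was compared with the rest by Dixon's criterion, in which the gap to the nearest mouse, as a share of the range of the 4, must exceed a 95% critical value. Chance alone marks about 1 in 20 groups. It marked 4. Bgn was at 290 CPM in Cardinal TAC replicate 1, against 160 to 179 CPM in the other 3 mice of the group (gap 0.851 of the range). Lum was at 59.1 CPM in the same mouse, against 27.9 to 29.8 CPM (gap 0.939). Fmod was at 3.10 CPM in GFP TAC replicate 3, against 0.696 to 0.986 CPM (gap 0.880). Prelp was at 66.2 CPM in that mouse, against 37.4 to 41.7 CPM (gap 0.852). The cause was not tested in either mouse.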

How the results depend on the processing

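Bgn, Aspn and Ogn passed after TAC in AAV9-GFP hearts under all 24 alternatives. With 1 mouse left out at a time, the number of the 8 genes past the threshold ranged from 3 to 6 after TAC with GFP, 1 to 3 after TAC with Cardinal, 0 to 4 between vectors after TAC and 0 to 1 for the difference in response. After TAC with GFP, no filter and the fit of only the 8 mice each left 4 genes. After TAC with Cardinal, the fit of only the 8 mice left 1. DESeq2 called 2 between the vectors after TAC. By the longest transcript Bgn ranked 1, Dcn 2 and Ogn 3.

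Replicate numbers are not tied to litters or days by the labels. Deviations from the group means correlated at -0.040 to 0.21 between mice of the same number, with 4 of 16 pairs above 0.1, all 4 of them between mice numbered 1. Every pair of mice numbered 1 was above 0, from 0.067 to 0.21, and pairs of different numbers ranged from -0.19 to 0.22. Whether the mice numbered 1 share more than a number was not tested, and the main fit left the number out. With the replicate block, 6 genes passed after TAC with GFP, 0 after TAC with Cardinal (31 of all genes) and 0 between vectors after TAC (0 of all genes). Under the block the log2 fold change turned to 0.069 for Dcn, 0.20 for Prelp and 0.013 for Podn after TAC with Cardinal, to 0.059 for Podn between vectors after TAC, and to 0.026 for Dcn and 0.045 for Podn in the difference of responses.

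Values that changed sign with a mouse left out had not passed the test. They ranged from -0.0091 to 0.12 for Dcn after TAC with GFP. After TAC with Cardinal the ranges were -0.13 to 0.011 for Dcn, -0.016 to 0.42 for Lum, -0.29 to 0.34 for Fmod and -0.24 to 0.039 for Prelp. Between vectors after TAC Podn ranged from -0.40 to 0.043. In sham hearts the ranges were -0.14 to 0.047 for Lum, -0.24 to 1.13 for Fmod, -0.042 to 0.033 for Ogn, -0.035 to 0.021 for Prelp and -0.084 to 0.18 for Podn, and Aspn ranged from -0.14 to 0.12 in the difference of responses. Fmod, with 0 to 74 counts per mouse, is limited by depth and has no value under the filter of 1 CPM. The causes were not tested.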
